A study of Mus musculus with 12 samples.

Results

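The loci described are those of 8 receptor genes of the mouse, the estrogen receptors Esr1, Esr2 and Gper1, the corticosteroid receptors Nr3c1 and Nr3c2, and the estrogen-related receptors Esrra, Esrrb and Esrrg. They are 8 of 55413 annotated genes (GENCODE M21, mouse genome build mm10). A locus was the gene body with 50000 bp upstream of it, and an ATAC-seq peak belonged to a locus if its summit, the position of highest signal, lay inside. The 12 peak lists held 658361 peaks, of which 665 lay in the 8 loci. They merged into 450 of the 435284 regions of the whole series.

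Estradiol (E2) acts mainly through 2 nuclear receptors, ESR1 (estrogen receptor alpha) and ESR2 (estrogen receptor beta), which bind DNA as dimers after the ligand has entered the cell. GPER1 is a membrane receptor with affinity for E2 and is unrelated to them in structure. The glucocorticoid receptor NR3C1 and the mineralocorticoid receptor NR3C2 are ligand-activated transcription factors of the same superfamily. The estrogen-related receptors ESRRA, ESRRB and ESRRG resemble the estrogen receptors in sequence but do not bind E2, and they are known as regulators of energy metabolism and, for ESRRB, of pluripotent cells. Fulvestrant is an antagonist of ESR1 and ESR2 that also leads to loss of the ESR1 protein.

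ATAC-seq marks DNA that a transposase can reach, and here it was run on primary skeletal muscle fibroblasts at passage 1, cultured from muscle of the lower abdomen of Arom hum mice, a strain that expresses human aromatase and so converts androgen to estrogen in muscle. All 4 groups of 3 libraries came from this genotype and were treated for 1 hr after serum starvation and a 3 hr pretreatment with fulvestrant or its solvent: vehicle, E2 at 10 nM, E2 at 10 nM plus fulvestrant at 100 nM, and fulvestrant at 100 nM alone. No wild-type cells were among the 12 libraries, and the animals' age was not given in the labels. The labels do not say whether the 3 libraries of a group came from separate animals or cultures, so each p-value measures only the spread between these libraries, which may be technical.

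The lists held between 30062 and 110724 peaks, and between 7.35% and 46.4% of a list passed a q of 0.05. A promoter was counted as listed if a summit lay within 3000 bp of any transcript start of the gene. In 5 libraries (vehicle replicates 1 and 3, and replicate 1 of E2, E2 plus fulvestrant and fulvestrant) between 53.7% and 62.7% of protein-coding promoters were listed, against 17.3% to 44.3% in the other 7. These 5 are called the promoter-rich libraries below, a split made from the lists and not a group of the study. The 4 replicate 1 libraries listed between 22 and 36 Y chromosome peaks and the other 8 between 854 and 1148, so values are also given within replicate number 1 and within numbers 2 and 3. Promoters of the 8 fibroblast markers were listed in 4 to 9 libraries each. Of the muscle lineage markers, Pax7 and Myod1 were listed in none, Myf5 in 1, Myog in 4 and Des in 6. Endothelial markers were listed in 2 to 5 libraries, blood cell markers in 1 to 3, and epithelial markers in 1 to 4. The median protein-coding gene was listed in 5. With q of 0.05 or less, the fibroblast markers were listed in 2 to 5 libraries, except Ly6a in 0. Of the other markers, Myog, Tek and Epcam were then listed in 1 library each and the rest, Des among them, in 0.

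The regions listed in the most libraries at these loci were of different kinds of sequence, and 5 are printed for that reason, from GRCm38 (the sequence of mm10) around the strongest summit, 5′ to 3′ on the strand of the gene. Capitals mark an AP-1 site (TGANTCA) or a GC box (GGGCGG, or CCGCCC where it lies on the other strand). The first 3 had no match of a 32-base stretch at the summit elsewhere in the genome and no base masked as a repeat. The other 2 are repetitive in different ways. The Esr1 downstream intron region was 91.5% masked as repeat, with an uninterrupted run of a 3-base unit over 47 bp. The Esrrg intron region had no base masked as a repeat, and its longest uninterrupted run of a short unit covered 8 bp. Its printed sequence instead repeats a longer unit with small changes. The Esrra promoter is chr19:6921904-6922104 (minus strand), the Nr3c2 promoter chr8:76902114-76902287 (plus strand, ending before the first base of the exon), and the Esr1 intron region nearest the start chr10:4618548-4618748 (plus strand). The Esr1 downstream intron region is chr10:4730177-4730377 (plus strand) and the Esrrg intron region chr1:187619411-187619611 (plus strand).
Esrra promoter: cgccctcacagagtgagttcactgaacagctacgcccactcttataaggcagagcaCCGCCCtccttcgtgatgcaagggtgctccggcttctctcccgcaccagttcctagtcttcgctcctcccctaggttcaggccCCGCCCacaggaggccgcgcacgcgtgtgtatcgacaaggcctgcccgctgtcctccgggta
Nr3c2 promoter: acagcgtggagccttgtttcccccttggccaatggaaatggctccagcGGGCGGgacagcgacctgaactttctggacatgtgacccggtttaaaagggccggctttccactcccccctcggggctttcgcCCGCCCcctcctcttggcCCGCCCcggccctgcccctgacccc
Esr1 intron near the start: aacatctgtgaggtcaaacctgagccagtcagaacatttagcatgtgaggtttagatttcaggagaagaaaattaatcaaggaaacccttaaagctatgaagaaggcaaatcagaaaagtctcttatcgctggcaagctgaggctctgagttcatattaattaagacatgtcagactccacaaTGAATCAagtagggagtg
Esr1 downstream intron: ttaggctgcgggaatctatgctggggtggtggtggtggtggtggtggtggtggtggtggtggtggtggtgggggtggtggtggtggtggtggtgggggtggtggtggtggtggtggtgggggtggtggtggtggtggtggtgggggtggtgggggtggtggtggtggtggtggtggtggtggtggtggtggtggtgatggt
Esrrg intron: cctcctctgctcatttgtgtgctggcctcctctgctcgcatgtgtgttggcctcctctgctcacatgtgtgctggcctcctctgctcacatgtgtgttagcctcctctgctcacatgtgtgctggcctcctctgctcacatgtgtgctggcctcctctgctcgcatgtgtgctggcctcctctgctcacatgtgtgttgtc

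Esr1 (ENSMUSG00000019768.16, chr10:4611593-5005614, plus strand) encodes estrogen receptor alpha, the main target of fulvestrant. Its window of 444 kb held 126 peaks over the 12 lists, 29 of them with q of 0.05 or less, and 93 lay in introns, 15 upstream and 12 at its own promoters. This was 28.4 peaks per 100 kb, at percentile 35.6 of protein-coding loci, whose median was 36.9. Esr1 had 7, 29 and 4 peaks in vehicle replicates 1 to 3, 12, 16 and 9 with E2, 5, 10 and 13 with E2 plus fulvestrant, and 8, 9 and 4 with fulvestrant. Vehicle replicate 2, the longest list, was highest, and all groups overlapped. The E2 mean was 12.3 ± 3.51 and the E2 plus fulvestrant mean 9.33 ± 4.04 (SD, n = 3 each), a difference of 3 that was smaller than the larger SD (exact permutation test, two-sided, p = 0.5, adjusted over all loci 1). It was 7 within replicate number 1 and 1 within numbers 2 and 3. With 1 library left out it was 0.833 (E2 plus fulvestrant replicate 1), 1.17 (E2 replicate 2), 4.67 (E2 replicate 3) or 4.83 (E2 plus fulvestrant replicate 3).

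The intron region near the Esr1 start, 6627 bp from the nearest annotated start, was the strongest of the locus. Its fold enrichment (the pileup of tags at the summit over the local background) was 7.14, 2.78 and 8.29 in vehicle replicates 1 to 3, 7.83 in E2 replicate 1, 6.52 in E2 plus fulvestrant replicate 1, and 6.86 and 3.85 in fulvestrant replicates 1 and 2. It was listed in all 5 promoter-rich libraries and in 2 of the other 7, and it passed q of 0.05 in 5 libraries. E2 and E2 plus fulvestrant each listed it in replicate 1 alone. It held 1 AP-1 match, as did 6.24% of all regions in the same 201 bp window.

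The downstream intron region of Esr1, 17626 bp from the nearest start, was listed in more libraries than any other region of the 8 loci. It appeared in 11 of 12 libraries, passed q in 8 of them, and was absent from vehicle replicate 3. Its fold enrichment was 3.5 and 6.67 in vehicle replicates 1 and 2, 5.33, 3.27 and 4.5 with E2, 3.8, 3.31 and 5.93 with E2 plus fulvestrant, and 4.97, 5.64 and 5.37 with fulvestrant. These ranges overlapped in every comparison. Of its 201 bp, 91.5% was masked as repeat, with an uninterrupted run of a 3-base unit over 47 bp. Stretches of 32 bases at its summit occurred at 3 to 7 places in the genome. A place here and below is a match that does not overlap another, and places can lie within the same run of repeats.

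Within 3000 bp of an Esr1 start, peaks were listed in 7 libraries and passed q in 3. The strongest promoter peak had a fold enrichment of 3.34 in vehicle replicate 2, 3.47 in vehicle replicate 3, 3.73 and 4.04 in E2 replicates 2 and 3, 4.73 and 5.56 in E2 plus fulvestrant replicates 2 and 3, and 3.96 in fulvestrant replicate 2. Apart from vehicle replicate 3, none of these was a promoter-rich library. With the window narrowed to 1000 bp, Esr1 promoter peaks were listed in 3 libraries.

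**Figure D1:**
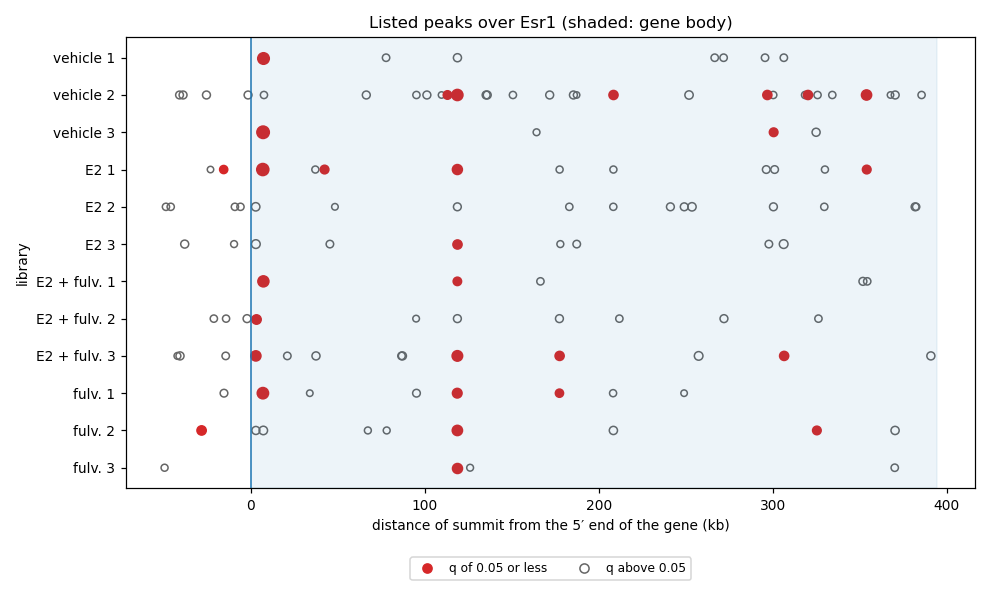
Position of each listed peak over Esr1 in each of the 12 libraries (rows), in kb from the 5′ end of the gene, with the gene body shaded. Symbol area grows with fold enrichment and filled symbols passed q of 0.05. The downstream intron region forms the column of symbols in 11 libraries, and the filled symbols just inside the 5′ end of the gene in the 5 promoter-rich libraries are the intron region with fold enrichments of 6.52 to 8.29.

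The genes whose peaks per 10000 listed peaks ran most like those of Esr1 over the 12 libraries were Slc14a1 (Spearman 0.951), Crybg2 (0.93) and Ranbp3l (0.902), out of 13834 protein-coding genes ranked. The points share list length and library quality, and these values are a description.

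Esr2 (ENSMUSG00000021055.14, chr12:76120419-76177259, minus strand) encodes estrogen receptor beta. Its window held 54 peaks, 50.5 per 100 kb (percentile 72.7), of which 26 lay upstream. Esr2 had 5, 15 and 2 peaks in vehicle replicates 1 to 3, 5, 4 and 1 with E2, 6, 2 and 3 with E2 plus fulvestrant, and 7, 2 and 2 with fulvestrant. Vehicle replicate 2 was again highest and the groups overlapped. E2 and E2 plus fulvestrant had means of 3.33 ± 2.08 and 3.67 ± 2.08 (SD, n = 3 each, exact permutation test, two-sided, p = 1).

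Esr2 promoter calls came from 9 libraries and passed q in 5, which 11.8% of protein-coding genes matched or exceeded. In 8 of the 9 the peak lay in a region whose strongest summit was 2849 bp upstream of the main start, and with a window of 1000 bp only 2 libraries remained. This upstream region, chr12:76179795-76180384, was wholly masked as repeat (100% of 201 bp), and its summit stretches occurred at 5 to 52 places in the genome. It was listed in libraries of all 4 treatments, with fold enrichments of 3.16 to 4.75.

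Gper1 (ENSMUSG00000053647.4, chr5:139423151-139427800, plus strand) encodes the G protein-coupled estrogen receptor. Its window was the shortest, at 54.6 kb, and held 44 peaks, or 80.5 per 100 kb (percentile 97.2). Of these, 20 lay at the starts of other genes (C130050O18Rik and Gpr146), 16 elsewhere upstream and 2 at Gper1 promoters. Gper1 had 3, 5 and 5 peaks in vehicle replicates 1 to 3, 4, 2 and 3 with E2, 3, 2 and 3 with E2 plus fulvestrant, and 4, 3 and 7 with fulvestrant. The groups overlapped, with means of 3 ± 1 for E2 and 2.67 ± 0.577 for E2 plus fulvestrant (SD, n = 3 each, exact permutation test, two-sided, p = 1).

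The Gper1 promoter was listed only in E2 plus fulvestrant replicate 3 (fold enrichment 2.65) and fulvestrant replicate 3 (3.03), and passed q in 0 libraries. A region in the exon, 3885 bp inside the gene (chr5:139426143-139427270), was listed in 6 libraries at fold enrichments of 3.03 to 3.36, none of which passed q. Only 1 of these 6 was a promoter-rich library. A promoter listed in at least 2 libraries was found for 79.2% of protein-coding genes, so Gper1 was at the low end.

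Nr3c1 (ENSMUSG00000024431.15, chr18:39410545-39519421, minus strand) encodes the glucocorticoid receptor. Its window held 34 peaks, 21.4 per 100 kb (percentile 24.6), of which 15 lay at its own promoters and 15 in introns. Nr3c1 had 3, 9 and 2 peaks in vehicle replicates 1 to 3, 5, 3 and 2 with E2, 3, 2 and 1 with E2 plus fulvestrant, and 3, 0 and 1 with fulvestrant. E2 and E2 plus fulvestrant overlapped at 2 and 3 peaks, with means of 3.33 ± 1.53 and 2 ± 1 (SD, n = 3 each, exact permutation test, two-sided, p = 0.5). The difference of 1.33 was 0.5 without E2 replicate 1, 0.833 without E2 plus fulvestrant replicate 3 and 2 without E2 replicate 3.

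Nr3c1 promoter peaks were listed in 9 libraries and passed q in 5, and the count of 9 was the same with the window narrowed to 1000 bp. The promoter region chr18:39490194-39492020, with its strongest summit 224 bp upstream of a start, had fold enrichments of 4.04 and 5.45 in vehicle replicates 1 and 3, 5.03 in E2 replicate 1, 4.79 and 3.46 in E2 plus fulvestrant replicates 1 and 3, and 5.95 in fulvestrant replicate 1. These were the 5 promoter-rich libraries and 1 of the other 7. Peaks at the most upstream Nr3c1 start were listed in vehicle replicate 2 and E2 replicates 1 and 2.

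Nr3c2 (ENSMUSG00000031618.13, chr8:76899442-77245012, plus strand) encodes the mineralocorticoid receptor. Its window of 396 kb held 88 peaks, 22.2 per 100 kb (percentile 26), of which 62 were intronic and 11 passed q. Nr3c2 had 9, 18 and 4 peaks in vehicle replicates 1 to 3, 14, 16 and 3 with E2, 6, 1 and 3 with E2 plus fulvestrant, and 10, 3 and 1 with fulvestrant. E2 replicates 1 and 2 were above every E2 plus fulvestrant library, but E2 replicate 3 had 3 peaks, as did E2 plus fulvestrant replicate 3. The means of 11 ± 7 and 3.33 ± 2.52 (SD, n = 3 each) differed by 7.67, more than either SD (exact permutation test, two-sided, p = 0.3, adjusted over all loci 1). The difference was 8 within replicate number 1 and 7.5 within numbers 2 and 3, of which number 2 gave 15 and number 3 gave 0. Without E2 replicates 1, 2 and 3 in turn it was 6.17, 5.17 and 11.7. Without E2 plus fulvestrant replicates 1, 2 and 3 in turn it was 9, 6.5 and 7.5. Counting only peaks that passed q, the E2 mean exceeded the E2 plus fulvestrant mean by 1 (exact permutation test, two-sided, n = 3 per group, p = 0.5). Of the 33 E2 peaks, 24 lay in regions that no other library listed, and 0 of 32 regions were listed in more than 1 E2 library. With E2 plus fulvestrant, 3 of 10 peaks lay in such regions, and 1 of 9 regions was listed in more than 1 library of that group. For this and the later counts of such peaks, the whole series had 338262 regions listed in 1 library alone, against 658361 peaks. Those numbers pool all 12 lists, and no share over all regions is given by treatment.

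The printed Nr3c2 promoter, 74 bp upstream of the start, had fold enrichments of 2.92 and 5.39 in vehicle replicates 1 and 3, 5.12 in E2 replicate 1 and 4.91 in E2 plus fulvestrant replicate 1. It was listed in 4 of the 5 promoter-rich libraries and 0 of the other 7. It held 3 GC boxes, a motif found in 5.04% of all regions and 29.2% of regions listed in at least 6 libraries. Counting every start, Nr3c2 promoter peaks came from 9 libraries, and in 4 of these a peak lay at the start of a noncoding transcript inside the gene.

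Esrra (ENSMUSG00000024955.14, chr19:6910977-6921813, minus strand) encodes an orphan receptor that regulates mitochondrial genes. It lies among closely spaced genes, so of 42 peaks in its window 34 were at starts of other genes, among them Gpr137 and Bad, and 8 at its own. Esrra had 6, 3 and 6 peaks in vehicle replicates 1 to 3, 5, 1 and 1 with E2, 7, 2 and 1 with E2 plus fulvestrant, and 5, 5 and 0 with fulvestrant. The groups overlapped, with means of 2.33 ± 2.31 for E2 and 3.33 ± 3.21 for E2 plus fulvestrant (SD, n = 3 each, exact permutation test, two-sided, p = 0.7).

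The Esrra promoter carried the strongest promoter peak of the 8 genes. Its fold enrichment was 9.57 and 11.7 in vehicle replicates 1 and 3, 11.5 in E2 replicate 1, 12.5 in E2 plus fulvestrant replicate 1, and 13.5 and 6.36 in fulvestrant replicates 1 and 2. The peak passed q in all 6, lay 191 bp upstream of the start at its strongest, and stood at percentiles 97.3 to 99.3 of its own lists. It was listed in all 5 promoter-rich libraries and 1 of the other 7, and its printed sequence held 2 GC boxes. In E2 replicate 3 and E2 plus fulvestrant replicate 2 a weaker peak (3 and 2.65) lay inside the gene instead. The Gpr137 and Bad promoters upstream, in the same window, were listed in the same 5 promoter-rich libraries, and in 2 and 1 of the other 7.

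Esrrb (ENSMUSG00000021255.17, chr12:86361117-86521628, plus strand) encodes a receptor best known from pluripotent stem cells. Its window of 211 kb held 87 peaks, 41.3 per 100 kb (percentile 57.6), and 51 were intronic. Esrrb had 10, 17 and 9 peaks in vehicle replicates 1 to 3, 12, 5 and 4 with E2, 7, 9 and 4 with E2 plus fulvestrant, and 6, 2 and 2 with fulvestrant. Every fulvestrant library was below every vehicle library, while E2 and E2 plus fulvestrant overlapped (7 ± 4.36 and 6.67 ± 2.52, SD, n = 3 each, exact permutation test, two-sided, p = 1). Fulvestrant and vehicle had means of 3.33 ± 2.31 and 12 ± 4.36 (SD, n = 3 each), a difference of -8.67 (exact permutation test, two-sided, p = 0.1, the smallest that 3 against 3 allows, adjusted over all loci 1). It was -4 within replicate number 1 and -11 within numbers 2 and 3. Per 10000 listed peaks the groups also did not overlap, but the share of all loci that did so was not computed for this comparison. Among peaks with q of 0.05 or less it was 0.333 with the opposite sign, with 1 mean peak per fulvestrant library and 0.667 per vehicle library.

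Esrrb promoter peaks were listed in 8 libraries and passed q in 0, with fold enrichments of at most 3.34. They were spread over 5 starts, and the most widely listed of these had peaks in 5 libraries. No region of the locus was listed in more than 2 libraries. In fulvestrant alone, 8 of 10 peaks lay in regions found in no other library, as did 24 of 36 in vehicle.

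Esrrg (ENSMUSG00000026610.13, chr1:187608791-188214885, plus strand) encodes a receptor linked to oxidative metabolism in muscle and heart. Its window was the longest, at 656 kb, and held 190 peaks, of which 164 were intronic. Esrrg had 29, 36 and 3 peaks in vehicle replicates 1 to 3, 28, 15 and 13 with E2, 11, 5 and 4 with E2 plus fulvestrant, and 32, 8 and 6 with fulvestrant. Every E2 library was above every E2 plus fulvestrant library, whereas vehicle and fulvestrant each overlapped both. The means of 18.7 ± 8.14 and 6.67 ± 3.79 (SD, n = 3 each) differed by 12 (exact permutation test, two-sided, p = 0.1, the smallest that 3 against 3 allows, adjusted over all loci 1). E2 was higher in 3 of 3 replicate numbers, by 17 within number 1 and by 9.5 within numbers 2 and 3, and the difference was 7.33 without E2 replicate 1 and 10.7 to 14.8 without any other library of these groups.

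The E2 and E2 plus fulvestrant values of Esrrg per 10000 listed peaks were 3.55, 3.08 and 4.1 against 1.81, 1.38 and 1.19, and they did not overlap either. With peaks of q of 0.05 or less the numbers were 5, 1 and 1 against 4, 0 and 0, a difference of 1 with overlap (exact permutation test, two-sided, n = 3 per group, p = 0.5). Of the 56 E2 peaks, 34 lay in regions listed in no other library, and of 50 E2 regions 4 were listed in at least 2 E2 libraries. With E2 plus fulvestrant, 10 of 20 peaks lay in regions listed in no other library. Of its 20 regions, 0 were listed in at least 2 libraries of that group. The 1 region listed in all 3 E2 libraries had fold enrichments of 2.63, 4.67 and 4.04 there. This region was also listed in E2 plus fulvestrant replicate 1 (3.18), vehicle replicate 2 (2.75) and fulvestrant replicate 1 (2.26). It was wholly repeat, with summit stretches at 2 to 719 places in the genome. Esrrg promoter peaks were listed only in vehicle replicate 1 (2.92) and fulvestrant replicate 2 (2.56), and passed q in 0. The printed Esrrg intron region, 9815 bp from the nearest start, was the most widely listed of the locus, in 8 libraries at 2.92 to 4.21, with summit stretches at 1 to 10 places.

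**Figure D2:**
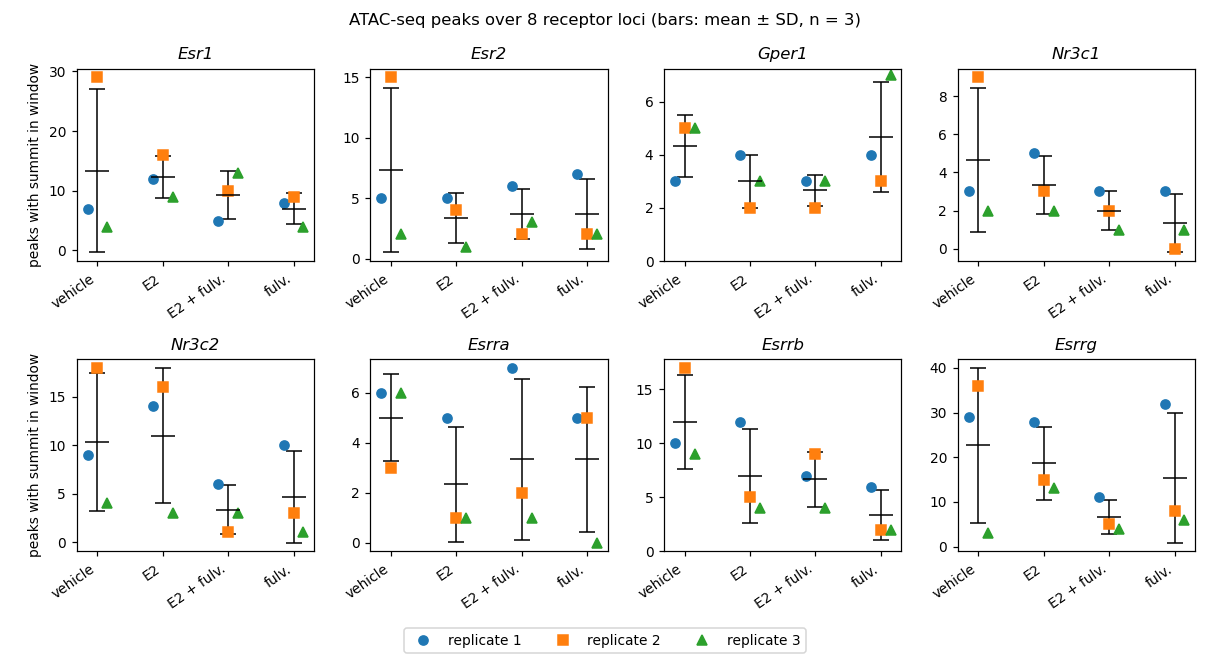
Number of listed peaks over each of the 8 receptor loci (vertical axis) by treatment, with 1 symbol per library and the mean ± SD of 3 libraries as bars. The Esrrg symbols with E2 (13 to 28) are all above those with E2 plus fulvestrant (4 to 11), and the Esrrb symbols with fulvestrant (2 to 6) are all below those with vehicle (9 to 17).

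To ask whether E2 signaling and its blockade altered these loci as a set, the loci whose groups did not overlap in peak number were counted. Between E2 and E2 plus fulvestrant this was 1 of 8 (Esrrg), where the background over all loci with a peak was 2.22%, or 2.21% among loci with at least 24 peaks, a minimum that all 8 met. Per 10000 listed peaks it was 2 of 8 (Esrrg and Nr3c1), against 9.27% of loci with at least 24 peaks. Between fulvestrant and vehicle it was 1 of 8 (Esrrb), against 4.29% of all loci and 5.05% of those with at least 24 peaks. Between E2 and vehicle it was 0 of 8, where 3.15% and 3.83% did not overlap, and between E2 plus fulvestrant and vehicle 0 of 8, where 5.4% and 6.5% did not. With 8 loci, 1 is the smallest count above 0, and no test over the 8 loci was made. The 3 comparisons with vehicle share its libraries.

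No region in the 8 loci was listed in every library of 1 group and in none of the other, in any of the 4 comparisons. The number of receptor regions listed in any library compared was 238 for E2 against E2 plus fulvestrant, 332 for E2 against vehicle, 284 for fulvestrant against vehicle and 270 for E2 plus fulvestrant against vehicle. Over all regions such separation was met in 0.178%, 0.141%, 0.149% and 0.158%, in the same order, so a count of 0 was near the background. Receptor regions were shared among libraries about as often as others, with 79.6% listed in 1 library alone (77.7% of all regions) and 2.44% in at least 6 (2.57% of all regions).

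No receptor promoter was listed in all 12 libraries, as 0.757% of protein-coding promoters were. The 8 receptors had a median of 8 libraries with a promoter peak, the other 42 genes of the nuclear receptor family 6.5, and all protein-coding genes 5. In order, Esr2, Nr3c1 and Nr3c2 were listed in 9 libraries, Esrra and Esrrb in 8, Esr1 in 7, and Gper1 and Esrrg in 2. With q of 0.05 or less the order changed, with Esrra in 6, Esr2 and Nr3c1 in 5, Nr3c2 in 4, Esr1 in 3, and Esrrb, Gper1 and Esrrg in 0. With a window of 1000 bp and any q, Nr3c1 and Nr3c2 were listed in 9, Esrra in 8 and Esrrb in 4. Esr1 was then listed in 3, Esr2 in 2, and Gper1 and Esrrg in 0. No median of other genes is given for that window. Every Esrra and Nr3c1 promoter peak that passed q was in a promoter-rich library, except that of Esrra in fulvestrant replicate 2. The Esr1 promoter peaks that passed q were all in other libraries, namely E2 plus fulvestrant replicates 2 and 3 and fulvestrant replicate 2. Peaks of Esr2 in vehicle replicate 2 and of Nr3c2 in fulvestrant replicate 2 also passed q outside the promoter-rich libraries. That split was itself made from promoter listing. The part that a library's overall promoter listing had in these calls was not tested, and fewer tags and less open DNA cannot be told apart in a list of peaks.

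**Figure D3:**
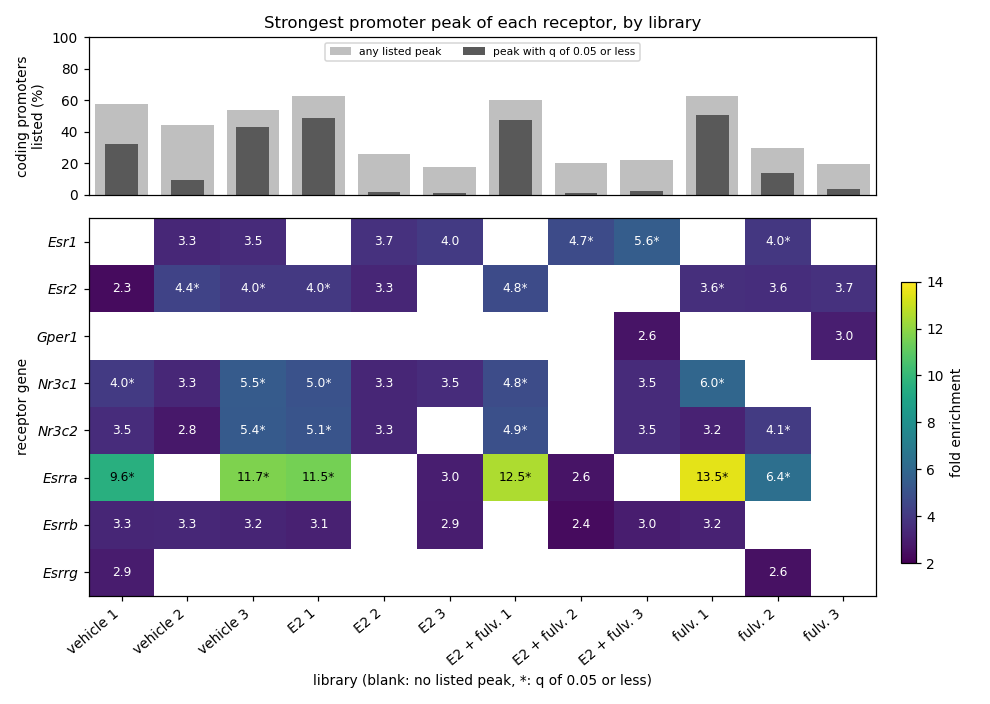
Fold enrichment of the strongest promoter peak of each receptor (rows) in each library (columns), blank where none was listed and starred where q was 0.05 or less, below the share of protein-coding promoters listed in that library. The Esrra row reaches 9.57 to 13.5 in the 5 libraries with the tallest bars (53.7% to 62.7%), and the Esrrg and Gper1 rows hold 2 values each.

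Of the 11 receptor regions listed in at least 6 libraries, 6 had summit stretches that each occurred at 1 place in the genome. The other 5 had stretches at several places, where matches within the same run of repeats were not told apart from distant copies. The 6 were the Esr1 intron region near the start, the Gper1 exon region, and the Nr3c1, Esrra, Gpr137 and Bad promoters. All but the Gper1 region were listed in all 5 promoter-rich libraries and in 1 or 2 of the other 7. The 5 with several places, in Esr1, Esr2 and Esrrg, were listed in 3 or 4 of the promoter-rich libraries and in 3 to 7 of the others. The part of read mapping in the latter was not tested.

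**Figure D4:**
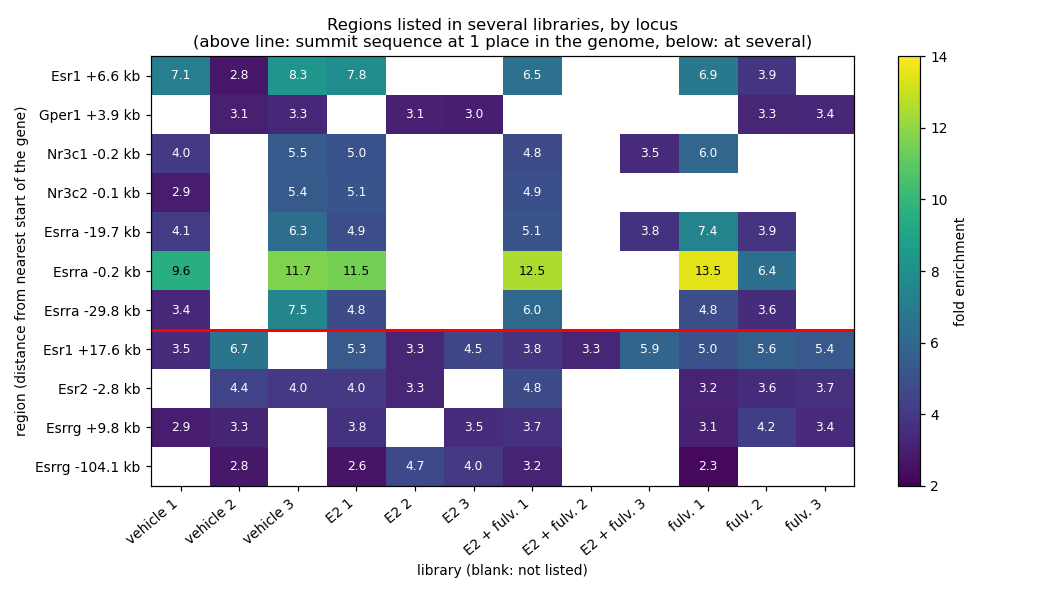
Fold enrichment by library (columns) of the described regions that were listed in at least 4 libraries (rows, labelled by distance in kb from the nearest start of the gene), blank where not listed. Above the line are regions whose summit sequence occurs at 1 place in the genome, with values up to 13.5. Below it are those found at several places, which can lie within the same run of repeats, with values up to 6.67.

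Exact matches to response element sequences were rare in the receptor regions, as they were over all regions. Within 100 bp of the strongest summit on either strand, the estrogen response element (GGTCA and TGACC with 3 bases between) was found in 0 of 450 receptor regions and 0.0262% of all regions. The glucocorticoid response element (AGAACA and TGTTCT with 3 bases between) was found in 0 of 450 and 0.00598%. At shares this low, 0 of 450 was near the background for both. The estrogen-related receptor element (TCAAGGTCA) was found in 2 of 450, or 0.444%, against 0.48% of all regions. The matches were in an Esrrb region at chr12:86486753-86486952 listed in 1 library and in an Esrrg region at chr1:187910705-187911333 listed in 3. AP-1 matches were in 5.56% of receptor regions and 6.24% of all regions. A match is a description of the letters and not a bound site.

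The other 42 nuclear receptor family genes gave a measure of how ordinary these loci were. Between E2 and E2 plus fulvestrant, 1 of the 42 was higher with no overlap and 0 lower, where 2.22% of all loci with a peak did not overlap. Against vehicle, 1 did not overlap for E2 (3.15% of all loci), 3 for fulvestrant (4.29%) and 2 for E2 plus fulvestrant (5.4%). The median difference of means, E2 minus E2 plus fulvestrant, was 0.667 peaks over the 42, 0.833 over the 8 receptors and 0.333 over all loci tested. Of the 42, 4 had a promoter peak in at least 10 libraries and 2 in none. Among all protein-coding genes, 3.59%, 1.46% and 0.757% were listed in 10, 11 and 12 libraries, and 11.8% in none.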

How the data were processed

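Peak lists of 12 ATAC-seq libraries were used, 1 per library. Per the labels and the methods of the study, the authors trimmed reads with Trimmomatic 0.39, aligned them to mm10 with Bowtie2, removed duplicates with Picard 2.21.4 and called peaks with MACS2 (shift -100, extension 200). The deposited fold enrichment is the ratio of the pileup to a local background. The deposited −log10 p-value and −log10 q-value belong to each peak, and the deposited score is a whole number made from them. The lowest deposited −log10 p-value was 2.01, so the lists hold many weak peaks. Read totals were not analysed here, so depth is unknown, and the absence of a peak does not show that DNA was closed.

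Summits were counted in 8 loci (gene body plus 50000 bp upstream, GENCODE M21) and within 3000 bp of transcript starts. Peaks of all libraries that overlapped or touched were merged into regions. Group means (3 against 3) were tested by exact permutation, two-sided, with a smallest possible p of 0.1, adjusted (Benjamini-Hochberg) over all loci with a peak. Alternatives were q of 0.05 or less, peaks per 10000, other windows, leaving out each library, and values within replicate numbers. Counting and merging were tested on simulated data. Sequence came from GRCm38, and repeats are its lower-case bases. Copies were counted for 3 adjoining stretches of 32 bases (96 bp) at the summit. Matches that did not overlap were counted on either strand, including those within the same run of repeats. All 8 genes were named, with up to 3 regions per locus among those listed in at least 6 libraries, or otherwise the most widely listed one. An item withheld from the text is not reported here. The members, lists and tests were chosen with earlier results of these data known. Python 3.11.15, numpy 2.4.6, pandas 2.3.3 and matplotlib 3.10.9 were used.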

Additional observations from a re-analysis of the deposited data

How the results depend on the processing

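The counts of receptor loci whose groups did not overlap moved with the setting. With q of 0.05 or less they were 0 for E2 against E2 plus fulvestrant and 0 for fulvestrant against vehicle, and per 10000 peaks 2 for E2 against E2 plus fulvestrant. Leaving out each library gave 1 to 2 for E2 against E2 plus fulvestrant, 0 to 2 for E2 against vehicle, 1 to 3 for fulvestrant against vehicle and 0 to 3 for E2 plus fulvestrant against vehicle. Within replicate number 1, with 1 library a group, they were 8, 7, 7 and 6 in that order, and within numbers 2 and 3 they were 3 for each comparison with vehicle. Regions in all libraries of 1 group and none of the other, 0 in the report, rose to 5, 5, 4 and 10 within numbers 2 and 3. Leaving out each library gave 0 to 3, 1 to 4, 0 to 3 and 0 to 4. Both kinds of count rise by construction when fewer libraries are asked to separate.

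Differences in peak number, E2 minus E2 plus fulvestrant, changed sign with the setting at Esr1, Esr2, Gper1, Esrra and Esrrb. Esr1 gave -0.333 with q of 0.05 or less. Over the lists left out in turn, Esr2 ran from -1.17 to 0.833 (0.833 without E2 replicate 3 or E2 plus fulvestrant replicate 1), Esrra from -2.33 to 0.833 (0.833 without E2 plus fulvestrant replicate 1), Gper1 from -0.167 (without E2 replicate 1) to 0.833, and Esrrb from -2.17 (without E2 replicate 1, with -1 without E2 plus fulvestrant replicate 3) to 1.83. Per 10000 peaks Gper1 gave -0.0243 and Esrrb -0.336. Esrrb gave 5 within replicate number 1 and -2 within numbers 2 and 3. The cause was not tested. No receptor promoter was listed in all 12 libraries, so the test of promoter fold enrichment was not run.

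Libraries of the same number deviated together (correlation over 0.1) in 6 of 18 pairs, from -0.0342 to 0.258. Libraries of different numbers did so in 1 of 36 pairs, from -0.181 to 0.104. Deviations from a group mean cancel within the group, so pairs of different numbers go down when those of the same number go up. The counts for same and different numbers are therefore not independent. The main test had no pairing because the methods of the study state no paired test. Those methods do state that batch effects were removed with Limma, without naming the batches. No batch was removed here. With the replicate block the Esrrg difference was again 12, with an exact sign-flip p of 0.25, the smallest that 3 pairs allow.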

Other observations

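The difference between the E2 effect without and with fulvestrant was lowest in p at Esrrb, where E2 minus vehicle was -5 peaks and E2 plus fulvestrant minus fulvestrant was 3.33, an interaction of -8.33 (exact permutation of E2 within fulvestrant strata, 400 arrangements, p = 0.08, adjusted over 53547 loci 1). For the other 7 loci the p was between 0.44 and 0.87.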
